A study of Mus musculus with 6 samples.

Results

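The genes described here were 10 regulators of growth arrest and of entry into the cell cycle, namely Trp53 and its targets Mdm2 and Ccng1, the CDK inhibitors Cdkn1a, Cdkn1b, Cdkn2a, Cdkn2b and Cdkn2c, and the D cyclins Ccnd1 and Ccnd2. They were chosen by name, as the genes with these symbols among the 54429 genes of the count table, and all 10 were listed and passed the filter on low counts, which kept 16065 genes. Growth of the cultures was the reason to read them library by library, since the control libraries differed in it.

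The protein p53, encoded by Trp53, is a transcription factor that is stabilised by DNA damage and other stress and raises genes of arrest, repair and death, while Mdm2 marks it for degradation. D cyclins bind CDK4 and CDK6, and the active kinases phosphorylate the retinoblastoma protein so that E2F factors can start DNA replication. The INK4 inhibitors encoded by Cdkn2a, Cdkn2b, Cdkn2c and Cdkn2d bind CDK4 and CDK6 directly, and the CIP/KIP inhibitors encoded by Cdkn1a, Cdkn1b and Cdkn1c bind cyclin-CDK complexes. In endothelium, several of these inhibitors are known from cells arrested by contact or shear stress and from senescent cells.

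The cells were primary aortic endothelial cells (EC) from adult WT mice of strain C57BL/6, bought from a supplier. They received either a Meis1-OE vector, which carries the homeobox transcription factor Meis1, or the control vector YFP-CTRL. After 48 h of transduction, YFP+CD31+VEC+ cells were sorted at 72 h, grown again to confluency and lysed, and RNA from 300000 cells per sample was sequenced after ribodepletion, with 3 libraries per condition. The replicates were transduced independently, while both conditions shared the strain and the source of the cells, and all cultures were expanded after the sort.

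The deposited table holds estimated counts, with totals of 34176592 to 47956569 per library, and libraries are named here by the letters that its columns carry. Wherever 3 values of a condition are listed, they are in the order of its libraries A, B and C. Meis1 had 135325 to 157828 counts in the Meis1-OE libraries and 39 to 85 in the YFP-CTRL libraries, where vector and endogenous transcripts were not separated. All 8 endothelial markers were among the genes tested, with Vwf higher and Tek lower in Meis1-OE EC. Cdh5 and Kdr were also lower in every Meis1-OE library than in any YFP-CTRL library. Both fell just short of the edgeR test used below (adjusted p = 0.0535 and 0.0504). DESeq2 called both lower (adjusted p = 0.00952 and 0.00134). Pecam1, Tie1, Eng and Emcn overlapped between conditions. The 8 summed to 3133 to 3960 CPM (TMM-scaled counts relative to the library total) in Meis1-OE EC. The sum was 4266 to 5856 CPM in YFP-CTRL EC. Of 8 macrophage and blood markers, C1qa, C1qb, Tyrobp and Adgre1 had no count in any library, and Ptprc and Fcer1g had 4 counts or fewer. Lyz2 had 6, 40 and 37 counts in Meis1-OE EC against 8, 8 and 7 in YFP-CTRL EC. Csf1r had 15, 26 and 18 against 1, 4 and 12. Both leaned higher in Meis1-OE EC without passing the edgeR test used below (adjusted p = 0.181 and 0.148). The summed level of 10 fibroblast and smooth muscle markers was 13.2 to 15.6 CPM in Meis1-OE EC and 34.0 to 51.9 CPM in YFP-CTRL EC. Most of it came from Pdgfra and Acta2, with Lum at 0 counts and Dcn at 2 counts or fewer. In YFP-CTRL EC, Acta2 was at 0.206, 2.18 and 19.9 CPM, highest in library C. Pdgfra was at 33.3, 49.1 and 15.6 CPM there, lowest in library C. In Meis1-OE EC, Acta2 was at 3.33, 1.41 and 0.993 CPM and Pdgfra at 11.9, 11.8 and 11.7 CPM. The part of these markers in the results below was not tested.

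The 3 YFP-CTRL libraries stood apart from each other in proliferation, and the 3 Meis1-OE libraries did not. A proliferation score (the score hereafter), the mean log2(CPM + 1) of 18 replication and mitosis genes, was 6.43, 6.42 and 6.47 in Meis1-OE EC, against 4.31, 5.20 and 6.41 in YFP-CTRL EC. Mki67, a marker of cycling cells, was at 672, 660 and 628 CPM in Meis1-OE EC, against 63.8, 205 and 589 CPM in YFP-CTRL EC. YFP-CTRL library C was therefore at the Meis1-OE level of the score, and YFP-CTRL libraries A and B were below it. Each of the 10 genes is given with all libraries, without single libraries where that changed its call, and with the score as a covariate. The Meis1-OE libraries hardly differed in the score, so the covariate fit takes its slope mainly from the 3 YFP-CTRL libraries. Its fold changes therefore lean on YFP-CTRL library C and are not a check independent of that library. Whether Meis1 itself changed the score was not tested. In these bulk libraries, fewer cells that express a gene and less RNA per cell cannot be told apart.

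With edgeR's quasi-likelihood test and Benjamini-Hochberg adjustment over the 16065 genes, 2 of the 10 genes, Cdkn2b and Ccnd2, passed the threshold of 0.05 and fell in Meis1-OE EC, and 0 of 10 rose. Across all genes tested, 2.73% were called lower and 4.14% were called higher. An unadjusted p under 0.05 was reached by 5 lower genes and 1 higher gene of the 10, and by 13.4% of all genes as lower and 12.8% as higher. DESeq2 called 4 of the 10 genes, with Cdkn2b, Ccnd2 and Trp53 lower and Cdkn2c higher, while it called 12.3% of all genes in either direction. Fold changes were negative for 7 and positive for 3 of the 10 genes, with a median log2 fold change of -0.23 against 0.01 over all genes tested.

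The levels separated the conditions more often than the test called them. For 5 of the 10 genes, Trp53, Cdkn1a, Cdkn2a, Cdkn2b and Ccnd2, every Meis1-OE library was below every YFP-CTRL library, as was so for 15.9% of all genes. Only Cdkn2c of the 10 had every Meis1-OE library above every YFP-CTRL library, as had 17.2% of all genes. Mdm2, Ccng1, Cdkn1b and Ccnd1 overlapped between the conditions. For 9 of the 10 genes the highest library exceeded the lowest by a larger factor in YFP-CTRL EC than in Meis1-OE EC, Cdkn1b being the exception. The share of all genes with a wider YFP-CTRL range was not counted, so this is not read as particular to the 10.

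**Figure D1:**
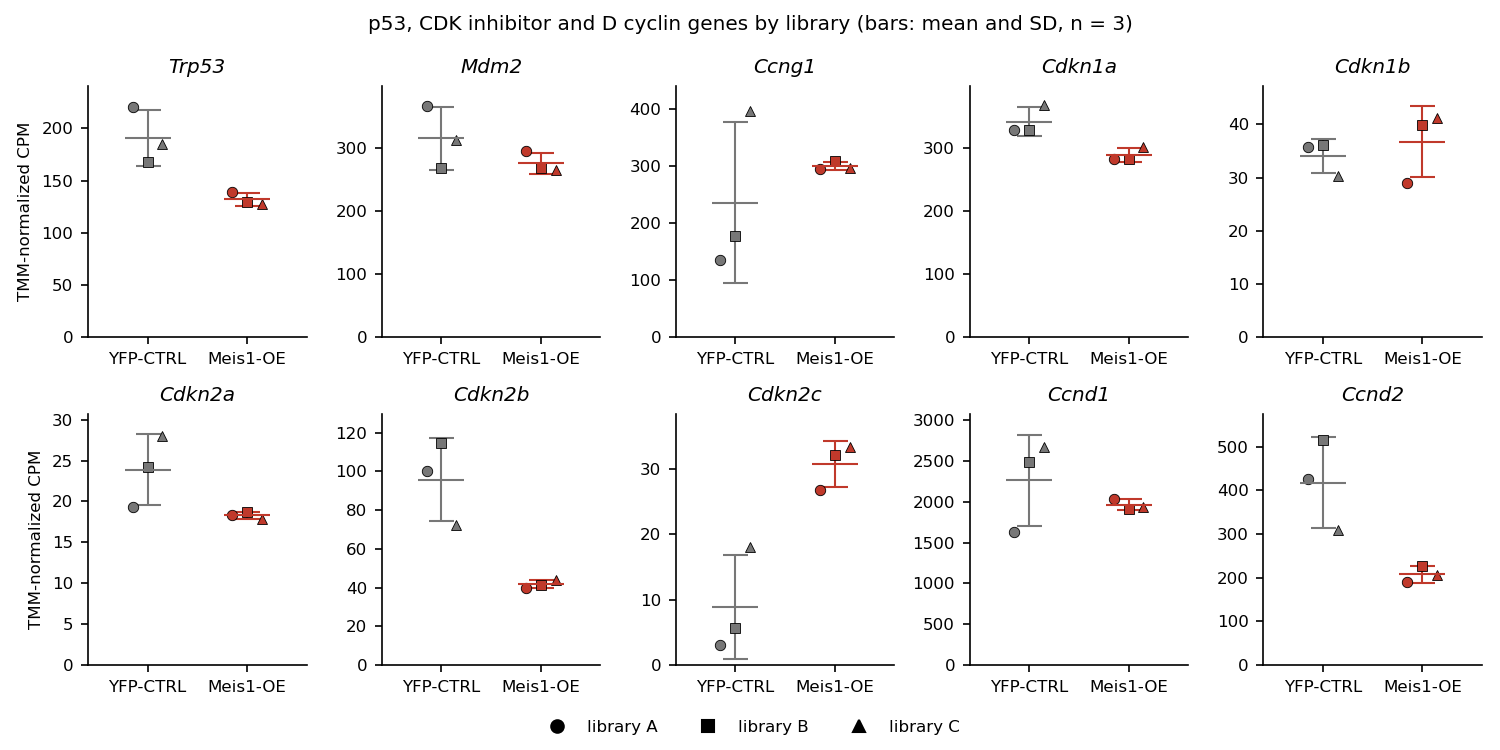
Level of each of the 10 genes in every library, as TMM-normalized CPM on an axis that starts at 0, with YFP-CTRL libraries in grey and Meis1-OE libraries in red, marker shape for the library letter, and bars for the mean and SD of 3 libraries. The YFP-CTRL points spread widely for Cdkn2c, 3.03 to 18.0 CPM, and for Ccng1, 135 to 397 CPM, while the Meis1-OE points of these 2 genes lie close together.

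The p53 axis was read first at Trp53 itself, which lies on chromosome 11 (chr11:69580348-69591873 of build GRCm38.p6, as are all positions here, from RefSeq). Trp53 was at 139, 129 and 128 CPM in Meis1-OE EC, against 220, 168 and 185 CPM in YFP-CTRL EC. All Meis1-OE libraries were below all YFP-CTRL libraries, with the highest value in YFP-CTRL library A. The means were 132 ± 6.12 CPM (SD, n = 3) in Meis1-OE EC and 191 ± 26.7 CPM (SD, n = 3) in YFP-CTRL EC, and the log2 fold change was -0.53 (standard error, SE, 0.13, adjusted p = 0.0530), just short of the threshold. It passed with DESeq2 (adjusted p = 0.00804), with DESeq2-style size factors in edgeR (adjusted p = 0.0464) and without YFP-CTRL library C (adjusted p = 0.0171), and reached an adjusted p of 0.247 without Meis1-OE library B. With the score as a covariate the log2 fold change was -0.41 (adjusted p = 0.164).

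Mdm2, the ubiquitin ligase that p53 itself induces and that in turn restrains p53, lies on chromosome 10 (chr10:117688875-117710758). Mdm2 was at 295, 268 and 265 CPM in Meis1-OE EC, against 368, 268 and 313 CPM in YFP-CTRL EC. The conditions overlapped, since YFP-CTRL library B was at the Meis1-OE level. The log2 fold change was -0.19 (SE 0.14, adjusted p = 0.408), and no alternative brought it past the threshold. With the score as a covariate it was -0.08 (adjusted p = 0.832).

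Ccng1 encodes cyclin G1, a p53-induced protein that recruits a phosphatase to Mdm2, and lies on chromosome 11 (chr11:40748552-40755309). Ccng1 was at 296, 309 and 297 CPM in Meis1-OE EC, against 135, 177 and 397 CPM in YFP-CTRL EC. The Meis1-OE libraries lay within a narrow band, and the YFP-CTRL libraries lay on both sides of it, A and B below and C above. The log2 fold change of 0.35 (SE 0.37, adjusted p = 0.586) therefore depended on the control library. It was 0.93 (adjusted p = 0.00456) without YFP-CTRL library C, 0.06 (adjusted p = 0.917) without YFP-CTRL library A, and -0.35 (adjusted p = 0.201) with the score as a covariate, the only sign change among the 10 genes under any alternative.

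These 3 genes and Cdkn1a share a sequence feature. Mdm2, Ccng1 and Cdkn1a are known p53 targets, so part of a p53 site in front of them would not be an independent result. RefSeq promoter sequences, 250 bases before to 50 bases after a start, were at hand for 8 of the 10 genes, with Ccnd1 and Ccnd2 not matched, and gave 11 sequences. A search on both strands for the p53 half-site, the 10-base consensus of purines, a C, A or T pairs, a G and pyrimidines that reads the same on either strand, found it in front of Trp53, Mdm2, Ccng1 and Cdkn1a, in 1 sequence each. The same search found it in 8.36% of the 32851 promoter sequences of the table. The windows are shown because they carry the match in each known target and in Trp53, in gene orientation, with the half-site in capitals. They are chr11:69580264-69580313 (+ strand) for Trp53, chr10:117710915-117710964 (- strand) for Mdm2, chr11:40755442-40755491 (- strand) for Ccng1 and chr17:29090886-29090957 (+ strand) for Cdkn1a.
Trp53: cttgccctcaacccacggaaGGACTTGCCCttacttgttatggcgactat
Mdm2: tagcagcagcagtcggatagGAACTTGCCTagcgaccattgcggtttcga
Ccng1: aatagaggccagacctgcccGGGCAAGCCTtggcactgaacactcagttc
Cdkn1a: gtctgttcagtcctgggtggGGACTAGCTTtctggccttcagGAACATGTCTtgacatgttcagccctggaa
The half-site began 75 bases before the start in Trp53, 186 in Mdm2 and 185 in Ccng1. The 2 half-sites in Cdkn1a began 73 and 51 bases before its upstream start. The promoter sequence of the downstream Cdkn1a start (chr17:29093519-29093818) had no match. A match is a description of these letters and not a measurement of binding. Whether any match is a known p53 site was not looked up. Over the libraries these 4 genes had different profiles, with the YFP-CTRL libraries on both sides of the Meis1-OE level for Ccng1, overlapping it for Mdm2, and all above it for Trp53 and Cdkn1a.

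Other p53 regulators did not pass the test in either direction, 0 of 11 tested of 13 listed (kinases, ligases and relatives of p53, Trp63 and Trp73 being at 1 count or less), with a median log2 fold change of 0.08. Of these, 3 were higher and 1 lower at an unadjusted p under 0.05, against 12.8% and 13.4% of all genes. DESeq2 called 1 higher, against 12.3% of all genes in either direction. The largest difference was that of Chek2, a checkpoint kinase that phosphorylates p53, at 0.95 (adjusted p = 0.119). When YFP-CTRL library C was omitted, 3 of these regulators were called higher and 1 lower, against 16.5% and 15.2% of all genes. Of 30 listed p53 target genes outside the 10, 27 were tested, 3 fell and 1 rose, against 2.73% and 4.14% of all genes. Their median log2 fold change was -0.33 against 0.01 over all genes. At an unadjusted p under 0.05, 11 were lower and 2 higher, against 13.4% and 12.8% of all genes. DESeq2 called 7 lower and 2 higher, against 12.3% of all genes in either direction. On library totals without TMM or under the replicate block by column letter, 0 were called lower. Aen, an exonuclease of apoptosis, fell by 0.63 on the log2 scale (adjusted p = 0.0312), Tnfrsf10b, a death receptor, by 0.52 (adjusted p = 0.0383), and Bax, which permeabilises mitochondria, by 0.48 (adjusted p = 0.0386).

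Fas, another death receptor, was the target gene that rose, and is named after its values were seen because its mean of 4.04 CPM was under the 5 CPM set for naming. It was at 6.13, 7.25 and 6.87 CPM in Meis1-OE EC, against 0.530, 1.27 and 2.22 CPM in YFP-CTRL EC (log2 fold change 2.31, adjusted p = 0.0279). So 2 death receptor genes of the list moved in opposite directions. Each of these 4 calls was lost when any 1 Meis1-OE library or YFP-CTRL library B was left out. With the score as a covariate, Fas was called higher (log2 fold change 1.49, adjusted p = 0.0298) and 0 target genes were called lower. The fold changes of the 3 lower genes were then -0.56 for Tnfrsf10b (adjusted p = 0.0554), -0.51 for Bax (adjusted p = 0.0508) and -0.48 for Aen (adjusted p = 0.0813). When YFP-CTRL library C was omitted, 4 were called higher and 14 lower, against 16.5% and 15.2% of all genes.

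Cdkn1a encodes p21, the CDK inhibitor most directly induced by p53, and lies on chromosome 17 (chr17:29090979-29100722). Cdkn1a was at 281, 282 and 300.4 CPM in Meis1-OE EC, against 327, 328 and 367 CPM in YFP-CTRL EC. Every Meis1-OE library was below every YFP-CTRL library by a small margin, and the YFP-CTRL libraries differed from highest to lowest by a factor of only 1.12, the narrowest of the 10 genes. The means were 288 ± 10.8 CPM and 341 ± 22.6 CPM (SD, n = 3 each), and the log2 fold change of -0.24 (SE 0.10, adjusted p = 0.183) did not pass. With the score as a covariate it was -0.34 (adjusted p = 0.132). YFP-CTRL libraries A and B had nearly the same Cdkn1a level, 327 and 328 CPM, at scores of 4.31 and 5.20.

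Cdkn1b encodes p27, which holds CDK2 inactive in resting cells and is controlled largely by protein turnover, and lies on chromosome 6 (chr6:134920401-134925525). Cdkn1b was at 29.0, 39.9 and 41.2 CPM in Meis1-OE EC, against 35.7, 36.2 and 30.3 CPM in YFP-CTRL EC. The ranges overlapped fully, and this was the only gene of the 10 with the larger spread among Meis1-OE libraries. The log2 fold change was 0.11 (SE 0.16, adjusted p = 0.717), and 0.24 with the score as a covariate (adjusted p = 0.586). Of 5 listed genes of p27 turnover, 4 were found under their symbol and 0 passed in either direction (median log2 fold change 0.24, 0 at an unadjusted p under 0.05 and 0 by DESeq2). The largest difference was that of Fbxo5, an inhibitor of the anaphase-promoting complex, at 1.10 (adjusted p = 0.267). When YFP-CTRL library C was omitted, 3 of the 4 were called higher, against 16.5% of all genes.

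The INK4 genes Cdkn2b and Cdkn2c had the fold changes farthest from 0 of the 10, with Cdkn2b past the threshold on the negative side and Cdkn2c short of it on the positive side. Cdkn2b encodes p15, an INK4 inhibitor known for its induction by TGF-beta, and lies on chromosome 4 (chr4:89306289-89311032). Cdkn2b was at 39.6, 41.4 and 43.9 CPM in Meis1-OE EC, against 100.4, 115 and 72.3 CPM in YFP-CTRL EC. The conditions did not overlap, and YFP-CTRL library C was the nearest to the Meis1-OE level. The means were 41.6 ± 2.12 CPM and 95.8 ± 21.6 CPM (SD, n = 3 each), so that the YFP-CTRL mean was 2.30 times the Meis1-OE mean, and the log2 fold change was -1.20 (SE 0.18, adjusted p = 0.0122).

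The call on Cdkn2b was the one that held most often. It passed with DESeq2 (adjusted p = 1.61e-06) and with the score as a covariate (log2 fold change -0.91, adjusted p = 0.0372), and without any 1 YFP-CTRL library (adjusted p of 0.000639 to 0.04996). Without Meis1-OE library A, B or C it was 0.0633, 0.0832 and 0.0687, where 2.43%, 0.798% and 0.875% of all genes were called and 0 of the 10 genes. The log2 fold change stayed between -1.38 and -0.91 throughout. The annotated lncRNA Gm12610 lies over the 4744 bases of Cdkn2b and had 0 to 2 counts in each library.

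Cdkn2a encodes both p16 and, from an upstream start and another reading frame, p19Arf, which blocks Mdm2. The count table has a single entry for both. Its span (chr4:89274473-89294619) ends 11669 bases before Cdkn2b, and its 2 starts are 12427 bases apart. Cdkn2a was at 18.4, 18.7 and 17.9 CPM in Meis1-OE EC, against 19.4, 24.2 and 28.0 CPM in YFP-CTRL EC. The Meis1-OE libraries were nearly equal and just below YFP-CTRL library A, the lowest of the controls. The log2 fold change was -0.38 (SE 0.16, adjusted p = 0.175). It passed with the score as a covariate (log2 fold change -0.65, adjusted p = 0.0342) and without YFP-CTRL library A (log2 fold change -0.52, adjusted p = 0.0495).

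Cdkn2c encodes p18, an INK4 inhibitor that is known as an E2F-responsive gene, and lies apart from the other two INK4 genes on chromosome 4 (chr4:109660876-109666756). Cdkn2c was at 26.8, 32.2 and 33.4 CPM in Meis1-OE EC, against 3.03, 5.61 and 18.0 CPM in YFP-CTRL EC. Every Meis1-OE library was above every YFP-CTRL library, and the controls differed by a factor of 5.94, in the order of their proliferation scores. The means were 30.8 ± 3.51 CPM and 8.89 ± 8.02 CPM (SD, n = 3 each), and the log2 fold change was 1.79 (SE 0.58, adjusted p = 0.110). It passed with DESeq2 (adjusted p = 0.00777) and without YFP-CTRL library C (log2 fold change 2.81, adjusted p = 0.00130), and was 0.78 (adjusted p = 0.0508) with the score as a covariate. Its 103 counts in YFP-CTRL library A were the lowest of any of the 10 genes, with an exact Poisson 95% interval of 84.1 to 125 counts that covers counting error only.

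The promoters of Cdkn2b and of the inner Cdkn2c start, chr4:89310983-89311282 and chr4:109665323-109665622 (both - strand, 300 bases in gene orientation), are shown because these genes had the fold changes farthest from 0, with opposite signs. Fold change does not set which Cdkn2c start is shown, and only the inner start held a match. Capitals mark the MEIS core TGACAG, searched on both strands and present in 19.2% of all promoter sequences.
Cdkn2b: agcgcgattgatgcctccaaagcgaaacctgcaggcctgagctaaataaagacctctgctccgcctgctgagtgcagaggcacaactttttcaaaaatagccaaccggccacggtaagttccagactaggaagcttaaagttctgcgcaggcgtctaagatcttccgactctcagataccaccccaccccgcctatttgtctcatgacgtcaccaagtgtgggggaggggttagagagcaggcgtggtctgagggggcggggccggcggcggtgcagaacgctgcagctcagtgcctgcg
Cdkn2c: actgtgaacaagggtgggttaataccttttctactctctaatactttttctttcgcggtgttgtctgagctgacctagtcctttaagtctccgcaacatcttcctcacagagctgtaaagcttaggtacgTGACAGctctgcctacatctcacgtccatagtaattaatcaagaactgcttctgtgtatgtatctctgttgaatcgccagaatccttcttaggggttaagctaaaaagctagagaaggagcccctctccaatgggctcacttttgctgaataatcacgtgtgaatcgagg
The match in Cdkn2c began 120 bases before the inner start, and the outer Cdkn2c start, 1384 bases away, had none. Cdkn2a had 1 match, on the other strand and 222 bases before its upstream start. The E2F sequences TTTGGCGC, TTTCGCGC, TTTCCCGC and TTTGCCGC, found in 2.26% of promoter sequences, matched only in front of that Cdkn2a start, 99 bases before it, among the 11 sequences. Neither motif nor the p53 half-site was found in these letters of Cdkn2b.

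The remaining INK4 and CIP/KIP genes, Cdkn2d (p19Ink4d) and Cdkn1c (p57), both rose in Meis1-OE EC. Cdkn2d was at 17.5, 18.1 and 20.3 CPM in Meis1-OE EC, against 2.77, 6.03 and 7.94 CPM in YFP-CTRL EC (log2 fold change 1.73, SE 0.34, adjusted p = 0.0319). The Cdkn2d call was lost without any 1 Meis1-OE library or YFP-CTRL library B (with adjusted p as high as 0.134), and with the score as a covariate (log2 fold change 1.08, adjusted p = 0.0511). Cdkn1c, named after its values were seen because its mean was 2.45 CPM, was at 4.70, 4.54 and 3.89 CPM in Meis1-OE EC, against 0.500, 0.564 and 0.528 CPM in YFP-CTRL EC. Its log2 fold change was 3.03 (SE 0.22, adjusted p = 0.00153), and it passed without each of the 6 libraries in turn (adjusted p of 0.000805 to 0.0180) and with the score as a covariate (log2 fold change 3.01, adjusted p = 0.00707). The 3 YFP-CTRL libraries were alike for Cdkn1c, within a factor of 1.13, whereas they spread by a factor of 2.87 for Cdkn2d. So among the 7 CDK inhibitor genes counted here, 2 rose, 1 fell and 4 did not pass. Of all genes tested, 4.14% were called higher and 2.73% lower.

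**Figure D2:**
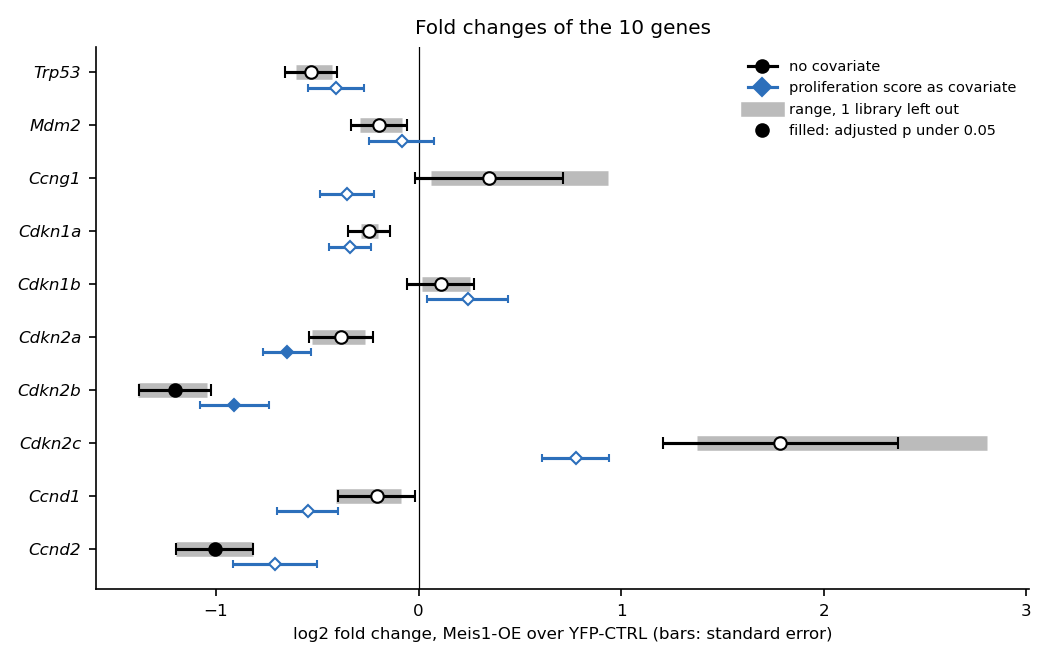
Log2 fold change of Meis1-OE over YFP-CTRL for the 10 genes, with black circles for edgeR without a covariate, blue diamonds with the score as a covariate, standard errors as bars, filled symbols for an adjusted p under 0.05, and grey bands for the range when 1 library is left out. Cdkn2b is filled in both fits, Ccnd2 only without the covariate (-1.01) and Cdkn2a only with it (-0.65), and Ccng1 lies on opposite sides of 0.

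Of the D cyclins, which activate CDK4 and CDK6, Ccnd2 fell and Ccnd1 did not pass the test. Ccnd2 lies on chromosome 6 (chr6:127125162-127152188). Ccnd2 was at 190, 227 and 206 CPM in Meis1-OE EC, against 427, 516 and 309 CPM in YFP-CTRL EC. The conditions did not overlap, and YFP-CTRL library C was again the nearest. The means were 208 ± 18.8 CPM and 417 ± 104 CPM (SD, n = 3 each), a factor of 2.01, and the log2 fold change was -1.01 (SE 0.19, adjusted p = 0.0279). The call held with DESeq2 (adjusted p = 0.000324) and without YFP-CTRL library C (adjusted p = 0.00150), and was lost without each of the other 5 libraries (adjusted p of 0.0536 to 0.138) and with the score as a covariate (log2 fold change -0.71, adjusted p = 0.111).

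Ccnd1 lies on chromosome 7 (chr7:144929931-144939831). Ccnd1 was at 2038, 1914 and 1930 CPM in Meis1-OE EC, against 1632, 2484 and 2674 CPM in YFP-CTRL EC. The Meis1-OE libraries lay between YFP-CTRL library A and the other two controls. The log2 fold change was -0.21 (SE 0.19, adjusted p = 0.523), and it was -0.41 when YFP-CTRL library A was omitted (adjusted p = 0.0593). The score as a covariate moved it most, to -0.55 (SE 0.15, adjusted p = 0.102). Ccnd1 overlaps LTO1 by 818 bases and Ccnd2 overlaps the lncRNA 9330179D12Rik by 2800 bases. LTO1, listed under its older symbol Oraov1, had 300 to 436 counts, and the lncRNA had 0 to 5. Since the use of strand in counting is not given in the sources used here, reads of such pairs may not be told apart.

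Of 20 cyclin, CDK, retinoblastoma and E2F genes, 0 passed in either direction, with a median log2 fold change of 0.47 against 0.01 over all genes. Of these, 8 were higher and 2 lower at an unadjusted p under 0.05, against 12.8% and 13.4% of all genes. DESeq2 called 4 higher and 0 lower, against 12.3% of all genes in either direction. With the score as a covariate 0 were called higher and 1 was called lower, E2f4, a repressive E2F factor named after its values were seen (log2 fold change -0.49, adjusted p = 0.0421). The largest difference was that of E2f2, an activating E2F factor, at 1.26 (adjusted p = 0.0829). The 18 proliferation score genes were in the same position, with 18 positive fold changes, a median of 0.89, 0 calls by edgeR, 2 higher and 0 lower at an unadjusted p under 0.05, and 1 call by DESeq2. Without YFP-CTRL library C, 12 of the 20 and 17 of the 18 were called higher, against 16.5% of all genes. The 18 are the genes whose score set that library apart, so their count follows from how it was left out.

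Comparing each YFP-CTRL library with the Meis1-OE mean showed where the controls disagreed. As log2 ratios to that mean, Cdkn2c lay at -3.34, -2.46 and -0.77, Cdkn2b at 1.27, 1.46 and 0.80, and Ccnd2 at 1.04, 1.31 and 0.57. All 3 controls thus lay on the same side for these genes, with library C nearest, whereas Ccng1 lay at -1.16, -0.76 and 0.40 and Ccnd1 at -0.26, 0.34 and 0.45. YFP-CTRL library C was the nearest of the 3 to the Meis1-OE mean for 4 of the 10 genes, Cdkn2b, Cdkn2c, Ccnd2 and Ccng1, against 54.0% of all genes tested. For Cdkn1a, Cdkn2a and Ccnd1 the nearest was library A, and for Trp53, Mdm2 and Cdkn1b it was library B.

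Within YFP-CTRL EC, 5 of the 10 genes, Ccng1, Cdkn1a, Cdkn2a, Cdkn2c and Ccnd1, had their levels in the order of the proliferation score, lowest in library A and highest in library C. None had the reverse order, and Cdkn2b and Ccnd2 were highest in library B and lowest in library C. The INK4 inhibitors Cdkn2a and Cdkn2c were thus highest in the control library with the highest score. These orders rest on 3 libraries, their share over all genes was not counted, and they are descriptions.

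**Figure D3:**
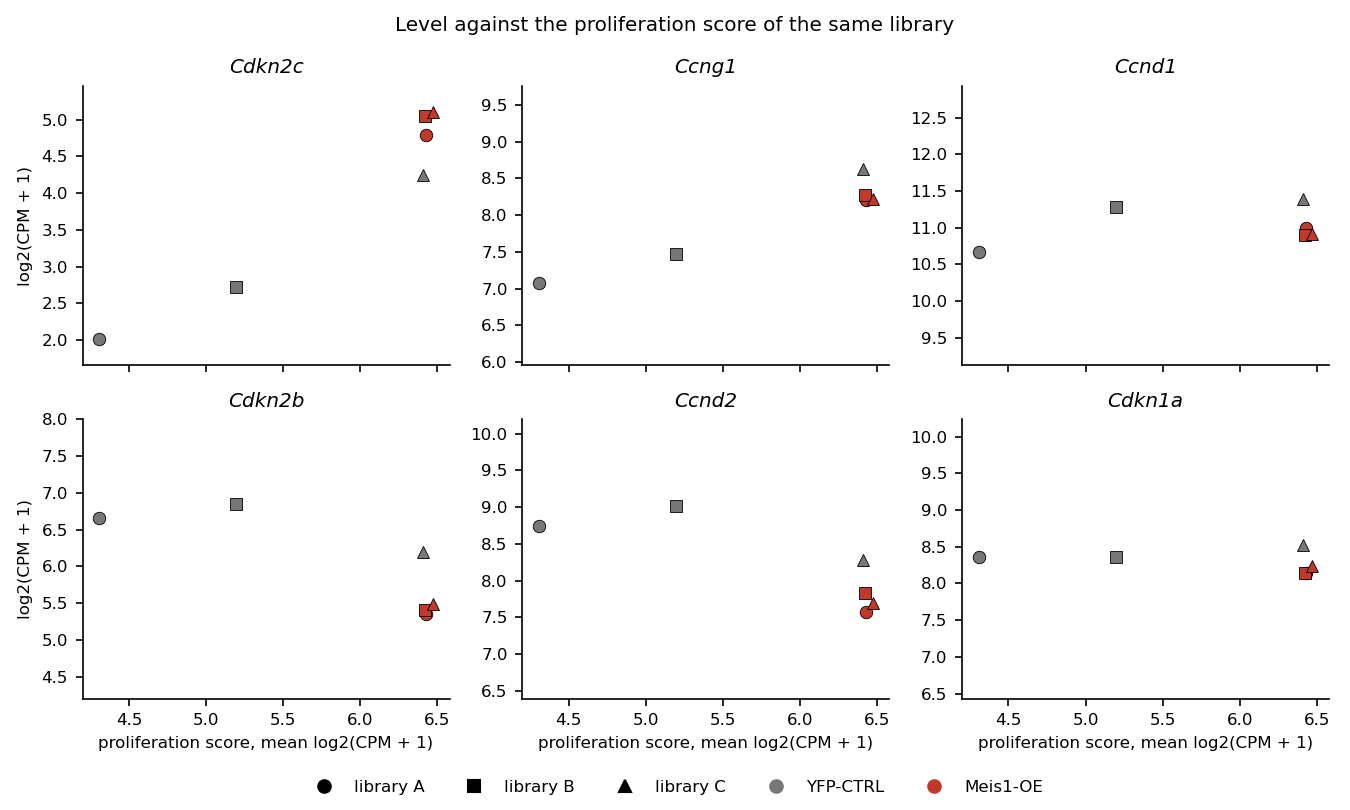
Level of 6 of the genes, as log2(CPM + 1) over axes of equal span, against the proliferation score of the same library, with YFP-CTRL libraries in grey, Meis1-OE libraries in red and marker shape for the letter. YFP-CTRL library C has the score of the Meis1-OE libraries, 6.41, yet sits below them for Cdkn2c and above them for Cdkn2b, Ccnd2, Ccng1, Ccnd1 and Cdkn1a.

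At the shared score of YFP-CTRL library C and the 3 Meis1-OE libraries the differences were smaller for some genes and not for others. In YFP-CTRL library C, Cdkn2b was at 72.3 CPM against 39.6 to 43.9 CPM in Meis1-OE EC, and Cdkn2c at 18.0 CPM against 26.8 to 33.4 CPM. Cdkn2a was at 28.0 CPM there against 17.9 to 18.7 CPM, its widest gap from the Meis1-OE level among the controls. This sets 1 control library against 3 and has no replicate check. The fit with the score as a covariate leans on the same control library. Of the 10 genes, 2 were called with the score as a covariate, Cdkn2a and Cdkn2b, while 4.13% of all genes were called in either direction. Without YFP-CTRL library C, 5 were called, with Cdkn2c and Ccng1 higher and Cdkn2b, Ccnd2 and Trp53 lower, while 31.7% of all genes were. Without YFP-CTRL library A, 2 were called (Cdkn2a and Cdkn2b) against 6.36% of all genes, and without YFP-CTRL library B, 1 was called (Cdkn2b) against 1.64%.

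Ratios of counts between 2 of the genes within a library do not depend on scaling between libraries. The 5 pairs were chosen after values were seen and are given without a test. The ratio of Cdkn2b to Cdkn2c counts was 1.48, 1.29 and 1.31 in Meis1-OE EC, and 33.1, 20.4 and 4.01 in YFP-CTRL EC. Every YFP-CTRL library was above every Meis1-OE library. The ratio of Ccnd2 to Ccnd1 counts was 0.0931, 0.119 and 0.107 in Meis1-OE EC, and 0.262, 0.208 and 0.115 in YFP-CTRL EC, with YFP-CTRL library C inside the Meis1-OE range. The ratio of Cdkn2a to Cdkn2b counts was 0.463, 0.452 and 0.407 against 0.193, 0.211 and 0.388. Here too the conditions did not overlap, although YFP-CTRL library C came close. The ratio of Cdkn1a to Trp53 counts was 2.02, 2.18 and 2.35 against 1.49, 1.96 and 1.98, and that of Ccng1 to Mdm2 counts was 1.0002, 1.15 and 1.12 against 0.366, 0.660 and 1.27. The former was higher in every Meis1-OE library, and the latter overlapped.

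**Figure D4:**
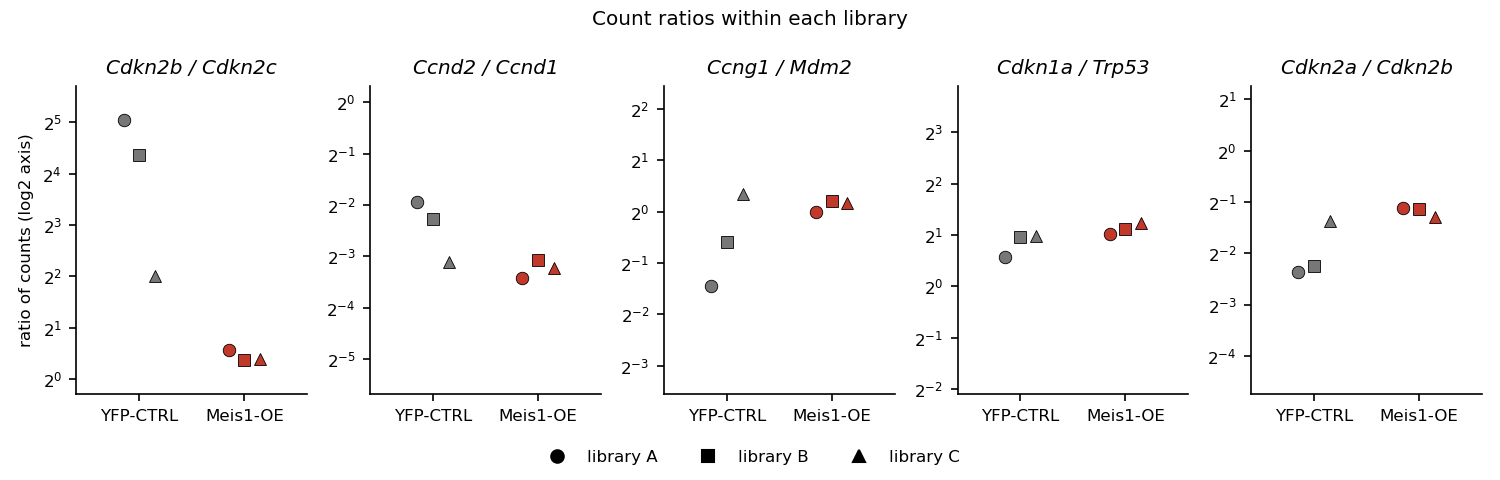
Ratio of the counts of 2 genes within each library on a log2 axis, with YFP-CTRL libraries in grey, Meis1-OE libraries in red and marker shape for the letter. The Cdkn2b to Cdkn2c ratio is 1.29 to 1.48 in the Meis1-OE libraries and 4.01 to 33.1 in the YFP-CTRL libraries, and the Ccnd2 to Ccnd1 and Ccng1 to Mdm2 ratios overlap between conditions.

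Of 18 listed senescence-associated genes, 16 were tested, 2 rose and 2 fell, against 4.14% and 2.73% of all genes. Their median log2 fold change was 0.07. Igfbp3, a secreted binding protein of insulin-like growth factors, was at 1353, 1365 and 1548 CPM in Meis1-OE EC, against 168, 335 and 447 CPM in YFP-CTRL EC (log2 fold change 2.17, adjusted p = 0.0135). The conditions did not overlap for Igfbp3. Plaur, the urokinase receptor, fell by 1.13 on the log2 scale (adjusted p = 0.0242). Igfbp5, named after its values were seen because its mean was 4.57 CPM, was at 0.153, 1.70 and 1.47 CPM in Meis1-OE EC, against 6.33, 10.7 and 7.06 CPM in YFP-CTRL EC (log2 fold change -2.86, adjusted p = 0.05 after rounding and under the threshold before it). So 2 genes of one binding protein family moved in opposite directions. The calls on Igfbp3, Plaur and Igfbp5 were lost without Meis1-OE library B or C or YFP-CTRL library B. Those on Igfbp3 and Plaur were also lost without Meis1-OE library A (adjusted p = 0.0504 and 0.09015), and that on Igfbp5 without YFP-CTRL library A (adjusted p = 0.0623). With the score as a covariate Igfbp3 was called higher (log2 fold change 1.52, adjusted p = 0.0135) and 0 genes of the list were called lower. Igfbp5 was then at -2.90 (adjusted p = 0.0904) and Plaur at -0.83 (adjusted p = 0.100).

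**Figure D5:**
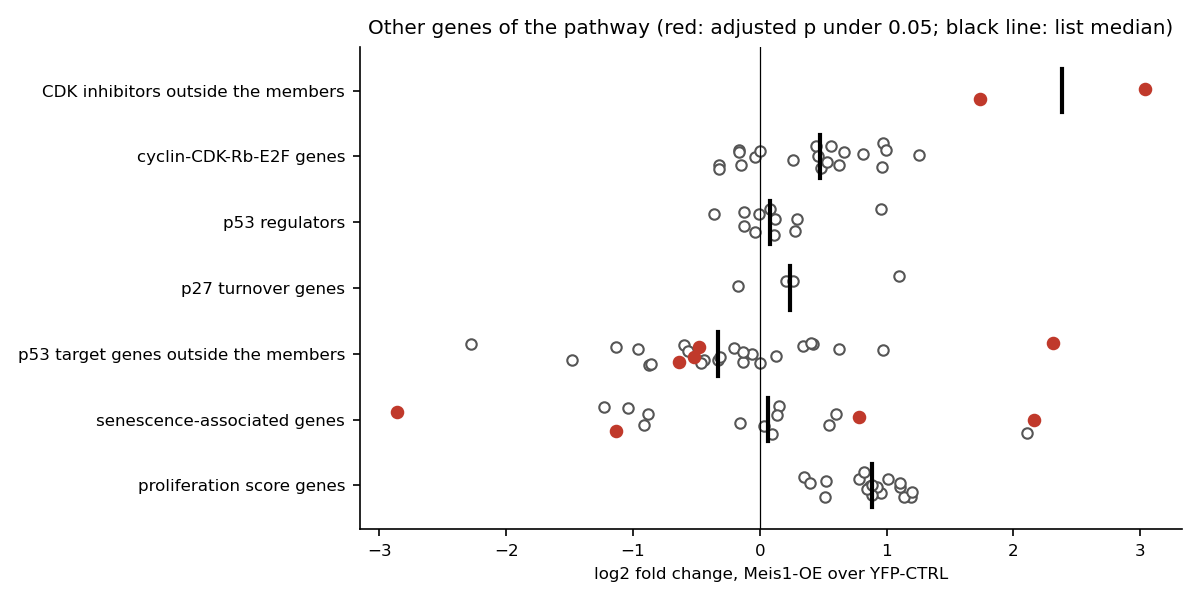
Log2 fold change of Meis1-OE over YFP-CTRL for every tested gene of the 7 lists, with red points for an adjusted p under 0.05, open points for the rest and a black line at each list's median. Both CDK inhibitors outside the 10 are red and right of 0, the cyclin, CDK and E2F list and the proliferation list have medians of 0.47 and 0.89 with no red point, and the p53 target list has a median of -0.33.

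The genes with the profile most like each of the 10 were found by the root mean square distance between centred log2(CPM + 1) profiles over the 6 libraries, among 10114 genes with a mean of at least 5 CPM. Nearest to Cdkn2b was Tmem47 (distance 0.0473), nearest to Cdkn2c was Depdc1b (0.0647), and nearest to Cdkn2a was Cenpv (0.0365). For the D cyclins these were P3h2 for Ccnd2 (0.0756) and Cgnl1 for Ccnd1 (0.0554). For the p53 axis these were Cdc34 for Trp53 (0.0403), Ninl for Mdm2 (0.0158) and Fam111a for Ccng1 (0.0659), and for the CIP/KIP genes they were Plekha3 for Cdkn1a (0.0265) and Enpp4 for Cdkn1b (0.0282). Depdc1b shared with Cdkn2c the low level in YFP-CTRL libraries A and B, at 0.795, 2.38 and 8.41 CPM in YFP-CTRL EC against 12.1, 15.5 and 15.4 CPM in Meis1-OE EC. Tmem47 was at 46.3, 51.5 and 51.7 CPM in Meis1-OE EC, against 117, 138 and 92.1 CPM in YFP-CTRL EC, the order of the controls seen for Cdkn2b. These distances describe 6 libraries and carry no test.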

How the data were processed

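Bulk RNA-seq libraries of 3 Meis1-OE and 3 YFP-CTRL samples were analysed. The authors deposited estimated counts per gene, not normalized and listed by symbol. Values were rounded, since 7767 to 8411 of them in each library were not whole. The submitters' processing notes give build mm10. The aligner, annotation and use of strand are not given in the sources used here. Conditions came from the labels, which number replicates, while the columns carry letters, so libraries were compared without pairs. The deviations of same-letter libraries from their group means correlated at 0.245 (A), 0.190 (B) and 0.081 (C).

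The tests were run in edgeR 4.0.16 under R 4.3.3 (TMM, filterByExpr, quasi-likelihood test, Benjamini-Hochberg threshold 0.05, two-sided) and DESeq2 1.42.0, with limma 3.58.1 loaded by edgeR. The biological coefficient of variation was 0.233. Both were run on simulated data with a common dispersion for all genes and libraries. The simulation did not include the spread in growth among the YFP-CTRL libraries. Totals of 34176592 to 47956569 set the counting precision, and the interval given for a count covers counting error alone, as PCR copies were not identified. Plots were made in Python 3.11.15 (matplotlib 3.10.9). Alternatives were other size factors, library totals, omission of Gm26917, other filters, a robust fit, DESeq2, the replicate block, the proliferation score as a covariate and each of 6 libraries left out in turn. The smallest exact permutation p for 3 against 3 is 0.1, so no gene was tested outside the model across genes.

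The 10 genes, the lists and the tests were chosen with earlier results of these data known. Genes of a list were named if called and at 5 CPM or more on average (at most 5 in each direction), otherwise the gene with the largest absolute fold change was, from the proliferation list Mki67 alone, Meis1 as a check, and for each of the 10 genes the nearest gene outside all lists. Genes named outside that rule are marked, and 1 gene that met it is not reported here. Positions and promoters were taken from RefSeq (GRCm38.p6), the assembly that mm10 names.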

Additional observations from a re-analysis of the deposited data

How the results depend on the processing

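Of 150 fold changes of the 10 genes under the alternatives, 149 kept their direction. The exception was Ccng1 with the proliferation score as a covariate, at -0.35. DESeq2 called 1 of the 10 genes higher. Leaving out 1 library moved the number of the 10 called higher between 0 and 2 and the number called lower between 0 and 3. Over all genes, 665 were higher and 438 lower, and leaving out 1 library gave 115 to 2717 higher and 16 to 2498 lower, the most without YFP-CTRL library C and the fewest without Meis1-OE library B. DESeq2 called 1124 higher and 1115 lower. Library totals without TMM called 1048 higher and 179 lower, with the median log2 fold change of all genes at 0.15 in place of 0.01, and the score as a covariate called 369 higher and 294 lower. Under a replicate block by column letter, 544 were higher and 189 lower, and 2 of the 10 genes, Cdkn2b and Ccnd2, were called lower, as without it. Meis1-OE libraries A and B correlated best with the control of their own letter (0.245 and 0.190), and C with YFP-CTRL library B (0.249 against 0.081), so whether the letters pair the libraries is not settled. The cause of these shifts was not tested.

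List counts moved too. Over the settings that kept all libraries, target genes of p53 called lower ranged from 0 to 7, against 3, and senescence-associated genes called lower from 0 to 4 and higher from 1 to 3, against 2 and 2. Cyclin, CDK and E2F genes called higher ranged from 0 to 4 against 0. With 1 library left out, these were 0 to 14, 0 to 5, 0 to 4 and 0 to 12. The lowest count of any of the 10 genes was 103.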

Other observations

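Some p53 target genes outside the 10 also set YFP-CTRL library C apart, as Ccng1 and Cdkn2c of the 10 did, but in the other direction. Other genes of that list, among them Ak1, Ephx1, Ei24, Dcxr and Fas, were highest in library C of the controls, as Ccng1 was. Gadd45a and Sesn2 were chosen after their values were seen and carry no test. Gadd45a, a growth arrest and DNA damage gene, was at 28.3, 38.0 and 36.0 CPM in Meis1-OE EC, against 87.8, 92.0 and 8.08 CPM in YFP-CTRL EC, each in the order of libraries A, B and C. Sesn2, a stress-induced inhibitor of mTORC1 signalling, was at 33.9, 39.1 and 38.8 CPM in Meis1-OE EC, against 141, 133 and 37.5 CPM in YFP-CTRL EC. The controls thus differed by a factor of 11.4 for Gadd45a and 3.76 for Sesn2, with library C below the Meis1-OE libraries for the former and within their range for the latter. Among the same controls the factor was 5.94 for Cdkn2c, 2.95 for Ccng1 and 1.12 for Cdkn1a, the narrowest of the 10.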
